A study of Equus caballus with 6 samples.

Results

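The proteasome genes described here are a list of 43 human gene symbols for the subunits and regulators of the proteasome, read in stallion testes on human arrays. A probe was taken as a member where the platform annotation gives it exactly 1 gene symbol and that symbol is on the list. This rule found 51 probes for 39 of the 43 genes, out of 23472 probes with 1 symbol, which cover 18278 genes. PSMA4, PSMC5, PSMD7 and PSMD13 had no probe of their own. In the dexamethasone group 3 adult stallions had received 0.1 mg/kg dexamethasone, a synthetic agonist of the glucocorticoid receptor, by intravenous injection. In the control group 3 adult stallions had received an equal volume of saline. All 6 had been acclimated to the clinic for 10 days on hay and horse feed, and their testes were taken 12 h after the injection. Total RNA of minced testis tissue (tubules together with interstitial cells) was hybridised to 1 CodeLink array per stallion, so each replicate is an animal. The labels give no age and no breed, and the probes were designed for human transcripts, so low signal does not show low expression in the horse.

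The proteasome degrades proteins that carry ubiquitin chains. Its barrel-shaped core has outer rings of alpha subunits, which gate the entrance, and inner rings of beta subunits, of which PSMB5, PSMB6 and PSMB7 cut the peptide chain. A regulatory particle sits on the core, with a base of ATPases that unfold substrates and a lid that removes their ubiquitin. Immune cells and cells exposed to interferon exchange the cutting subunits for PSMB8, PSMB9 and PSMB10, and in mice PSMA8 replaces PSMA7 in spermatocytes, where it is needed for meiosis. In skeletal muscle, glucocorticoids are known to raise ubiquitin ligases and proteasome activity.

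The arrays carried 53423 probes present once, of which 22690 to 25537 per array were above background (42.5% to 47.8%). Across probes, the 15 pairs of normalised arrays had correlations of 0.982 to 0.989. Testing needed signal above background on 3 or more arrays and 2 or more usable values in each group, and 24590 probes met both. The Leydig cell markers were above background on at least 3 arrays for 6 of 6 genes, those of Sertoli cells for 6 of 7, of spermatogonia for 5 of 6, of spermatocytes for 1 of 6 and of spermatids for 3 of 6. SOX9, UCHL1, HORMAD1, TEX101, PRM2 and TNP1 were above background on 0 arrays, and SYCP3 and PRM1 had no probe of their own. By slide number the arrays fall into 2 runs, one of 4 and one of 2, and both groups occur in each. The number of arrays limits the precision, and an exact two-sided permutation test of 3 against 3 cannot give a p below 0.1.

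Of the 51 proteasome probes, 28 were tested (54.9%, against 51.6% of all probes with 1 symbol), and these cover 24 genes. The core alpha subunits were tested for 5 of 7 genes, the constitutive beta subunits for 3 of 7, the ATPases of the base for 4 of 6 and the lid subunits for 5 of 8. Of the other base subunits 1 of 3 was tested, of the chaperones that assemble the base 2 of 3, of the immunoproteasome subunits 1 of 3 and of the activators 1 of 4. PSMA8 and the inhibitor PSMF1 were tested as well. Of the 15 genes with a probe but no test, 12 were above background on 0 arrays. These were PSMA7, PSMB1, PSMB3, PSMB4, PSMB8, PSMB9, PSMC3, PSMD2, PSMD6, PSME1, PSME2 and PSME4. PSMD1 and PSMD9 were above background on 1 array and PSMB7 on 2. The horse gene table (assembly TB-T2T) names all 43 genes, so the genes without signal are not genes that the horse lacks.

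No proteasome gene passed the test of dexamethasone against control stallions. Of the 28 probes, 14 were higher and 14 lower in the dexamethasone stallions, and 0 passed limma's adjusted p of 0.05, against 0.00407% of all probes tested (1 of 24590). At limma's unadjusted p under 0.05 there were also 0 of the 28, against 3.29% of all probes, and the smallest unadjusted p of a proteasome probe was 0.0787. The groups overlapped for every one of the 28, whereas they did not overlap for 9.27% of all probes. A difference of over 1.5-fold was found for 0 of the 28, against 0.240% of all probes. With 28 probes, a count of 0 lies near the first of these shares, and nothing particular to the proteasome is read from the others. In these whole-tissue samples fewer cells of a type and less RNA per cell cannot be told apart.

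Taking the brightest probe per gene, 13 of the 24 tested genes were higher and 11 lower, with a median log2 difference of 0.02 and a range from -0.26 to 0.14. Over all 10604 tested genes the median was -0.01. The median was 0.04 for the core alpha subunits, 0.02 for the constitutive beta subunits, -0.00 for the ATPases and 0.07 for the lid subunits. The 2 tested assembly chaperones had a median of -0.18, and 1 of them, PSMD5, was above background mainly in the controls. For 26 of the 28 probes the 95% interval of the difference lay within 1.5-fold either way, as it did for 96.3% of all probes tested. The exceptions were 1 probe of PSMA8 and the probe of PSMD10. Probes close to background are compressed by the offset added before the logarithm, and their intervals are those of the compressed values. The balance of higher and lower depended on the scaling, with 5 probes higher and 23 lower under median scaling, 8 and 20 with the authors' scaled values, and 18 and 10 with cyclic loess. Over all probes 52.5% were lower in the main setting and 77.2% under median scaling.

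**Figure D1:**
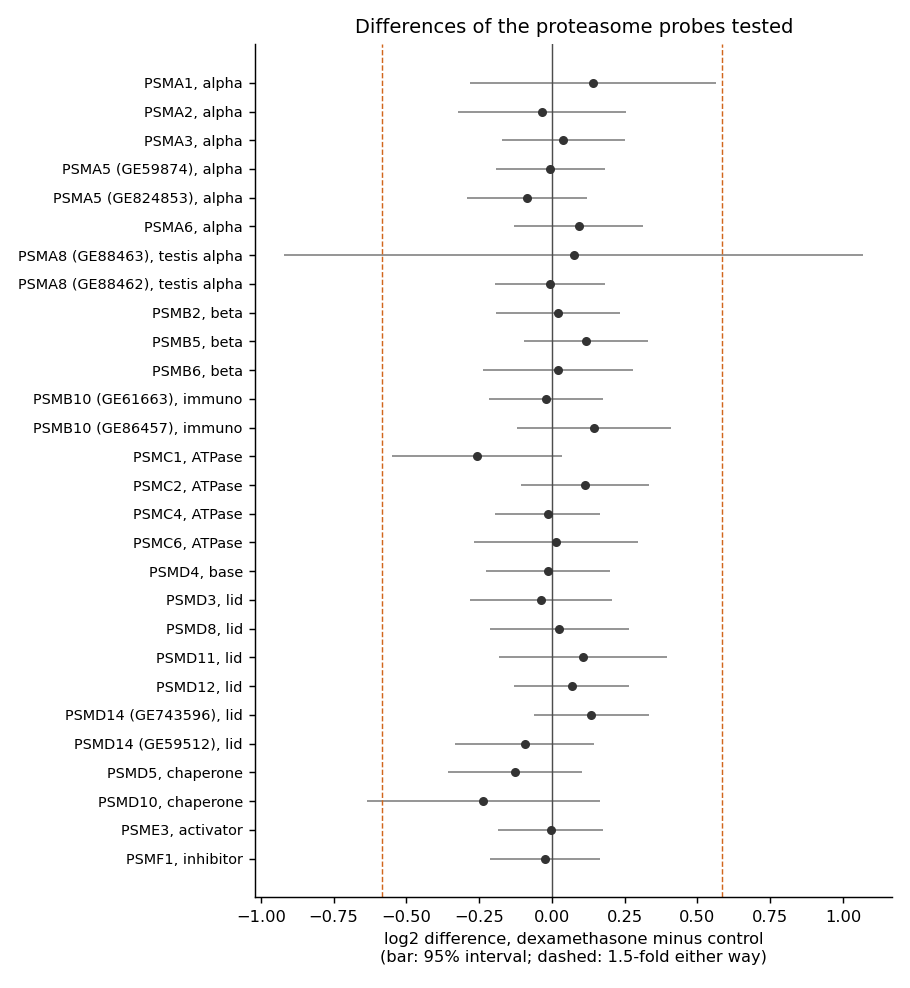
Log2 differences of the 28 tested proteasome probes (x axis, dexamethasone minus control) with limma's 95% intervals as bars, ordered by role from alpha subunits at the top to the inhibitor at the bottom; dashed lines mark 1.5-fold either way. Every interval includes 0, and those of PSMA8 (GE88463) and PSMD10 pass a dashed line.

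The core alpha subunits form the gate of the core. PSMA1 was at 11.62, 11.84 and 11.45 on the normalised log2 scale in the dexamethasone stallions, against 11.04, 11.89 and 11.55 in the controls. Control replicate 1 lay lowest and control replicate 2 highest, so the controls spanned the whole range. The difference was 0.14 ± 0.19 (SE), or -0.08 without control replicate 1 and 0.34 without control replicate 2. PSMA6 had the smallest p of the group, at 9.85, 9.72 and 9.73 in the dexamethasone stallions, against 9.60, 9.57 and 9.85 in the controls. Here 2 of the 3 controls lay below all dexamethasone stallions and the third among them, and the difference was 0.09 ± 0.10 (SE, limma's adjusted p = 0.999). PSMA2 was at 12.10, 12.57 and 12.52 in the dexamethasone stallions, against 12.30, 12.52 and 12.48 in the controls, a difference of -0.03 ± 0.13 (SE). The low value was that of dexamethasone replicate 1. PSMA3 differed by 0.04 ± 0.09 (SE). PSMA5 was read by 2 tested probes, which differed by -0.01 ± 0.08 and -0.09 ± 0.09 (SE). Its first probe lay within 11.84 to 11.86 in the dexamethasone stallions and within 11.76 to 11.95 in the controls. A second PSMA1 probe and the only PSMA7 probe were above background on 0 arrays.

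PSMA8, the alpha subunit of the germ cell proteasome in mice, gave the widest spread of any proteasome probe. Its probe GE88463 was at 7.61, 9.49 and 9.80 in the dexamethasone stallions, against 8.95, 8.81 and 8.91 in the controls. The 3 controls lay within a narrow band, while 1 dexamethasone stallion lay far below it and the other 2 above it. The group means were 8.97 ± 1.18 and 8.89 ± 0.07 (SD, n = 3 each), and the difference was 0.08 ± 0.45 (SE), with a 95% interval from -0.92 to 1.07. In the authors' scaled intensities the same probe read 5.19, 24.2 and 33.0 in the dexamethasone stallions, against 17.3, 15.2 and 16.9 in the controls. The spot was above background on all 6 arrays and carried no warning flag.

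The second PSMA8 probe, GE88462, which the annotation ties to the same gene, did not show this pattern. It was at 8.67, 8.64 and 8.61 in the dexamethasone stallions, against 8.55, 8.72 and 8.67 in the controls, a difference of -0.01 ± 0.08 (SE). All 6 stallions lay within a span narrower than the gap between any 2 dexamethasone stallions on the first probe. Without dexamethasone replicate 1 the first probe differed by 0.75 ± 0.12 (SE, limma's adjusted p = 0.311), and the second by -0.02. Without dexamethasone replicate 3 the first probe differed by -0.34. Within the first run of slides it differed by -0.33 and within the second, with 1 stallion per group, by 0.89. SYCP1, a protein of the synaptonemal complex and the only tested member of the 6 spermatocyte markers, was at 7.53, 7.71 and 8.02 in the dexamethasone stallions, against 7.86, 7.82 and 8.03 in the controls. Dexamethasone replicate 1 was lowest on both the SYCP1 probe and the first PSMA8 probe, but not on the second PSMA8 probe. Dexamethasone replicate 2 lay below all controls on the SYCP1 probe and above all of them on the first PSMA8 probe. The range of SYCP1 on the linear scale was 184 to 259 in the dexamethasone stallions and 226 to 261 in the controls, and its part in the PSMA8 values was not tested.

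**Figure D2:**
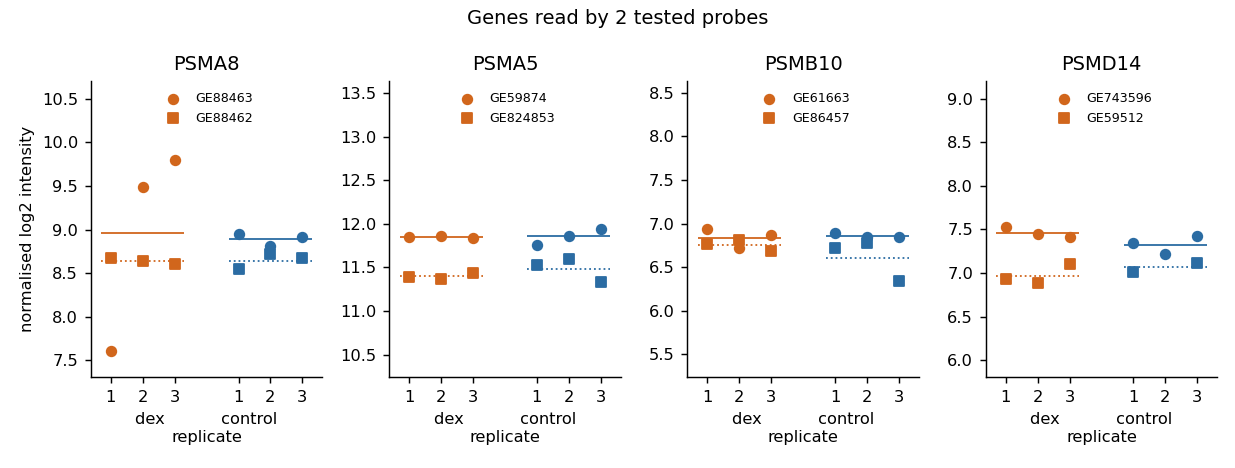
Normalised log2 intensity (y axis) of the 4 genes read by 2 tested probes, by stallion (x axis, dexamethasone in orange left of control in blue); circles and squares are the probes and solid and dotted lines their group means. The circles of PSMA8 run from 7.61 to 9.80 in dexamethasone stallions while its squares stay between 8.55 and 8.72 in all 6.

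The constitutive beta subunits include the 3 that cut proteins. PSMB5, the subunit with chymotrypsin-like activity, was at 8.92, 8.72 and 8.82 in the dexamethasone stallions, against 8.80, 8.57 and 8.73 in the controls. The groups overlapped, with the lowest value in control replicate 2 and the highest in dexamethasone replicate 1, and the difference was 0.12 ± 0.10 (SE, limma's adjusted p = 0.999). PSMB6, with caspase-like activity, was at 7.97, 7.95 and 8.27 in the dexamethasone stallions, against 7.93, 8.20 and 7.99 in the controls, a difference of 0.02 ± 0.11 (SE). PSMB2, a subunit without catalytic activity, was at 11.17 and 11.15 in the 2 dexamethasone stallions with a usable spot, against 11.21, 11.09 and 11.12 in the controls. It differed by 0.02 ± 0.09 (SE), with an interval from -0.19 to 0.23.

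Of the immunoproteasome subunits PSMB10 was tested, with 2 probes. Probe GE61663 was at 6.93, 6.71 and 6.87 in the dexamethasone stallions, against 6.89, 6.85 and 6.84 in the controls, a difference of -0.02 ± 0.09 (SE). Probe GE86457 was at 6.76, 6.81 and 6.69 in the dexamethasone stallions, against 6.72, 6.77 and 6.34 in the controls. The last control was the 1 array on which this probe was not above background. The difference of the second probe was 0.14 ± 0.12 (SE), or 0.01 without control replicate 3 and 0.34 with plain background subtraction. The other immunoproteasome subunits, PSMB8 and PSMB9, which have 1 gene between them in the horse table, gave no signal above background in either group. Among lymphocyte markers 5 of 6 were tested and PTPRC was above background on 0 arrays, and among macrophage markers 2 of 6 were tested and CD163, CSF1R and CD14 were above background on 0 arrays.

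**Figure D3:**
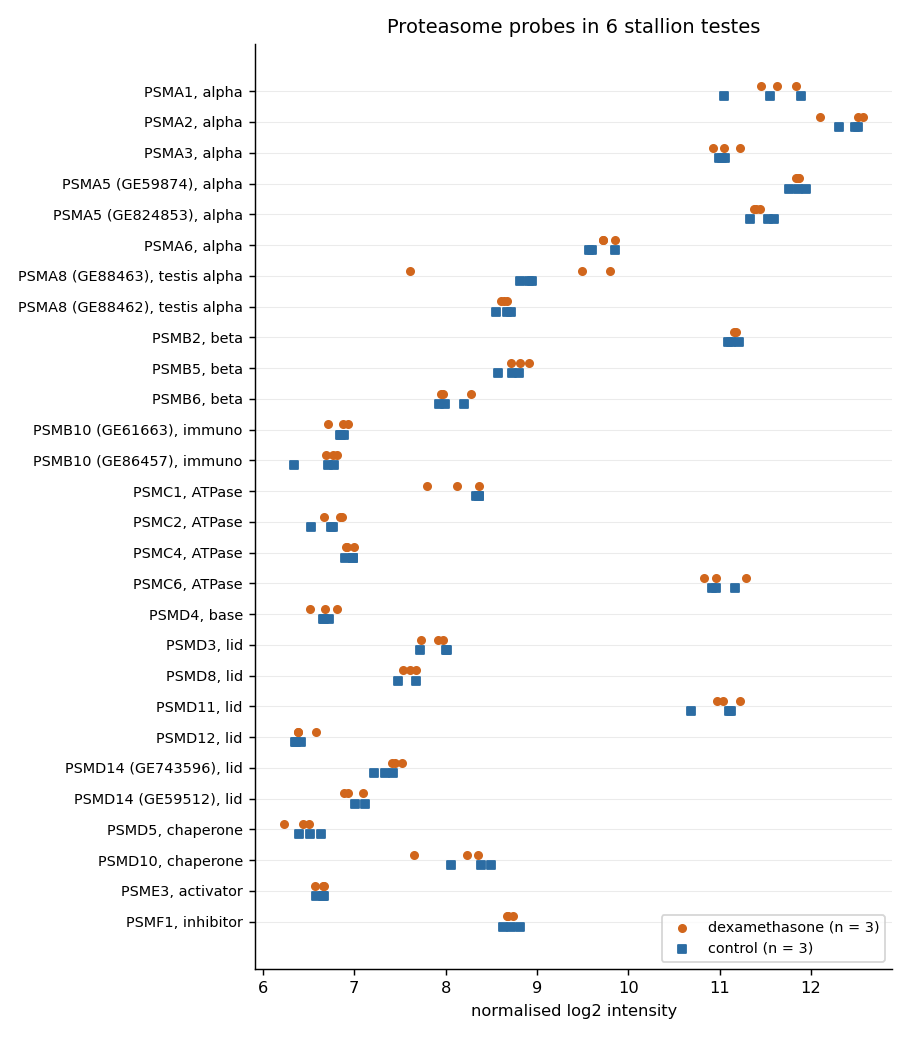
Normalised log2 intensity (x axis) of each tested proteasome probe in every stallion, dexamethasone as orange circles above control as blue squares. Levels of different probes are not comparable with each other. The circles and squares overlap in every row, and the widest scatter is that of the circles of PSMA8 (GE88463).

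Among the ATPases of the base, PSMC1 had the smallest p of all proteasome probes. It was at 8.12, 7.80 and 8.37 in the dexamethasone stallions, against 8.36, 8.36 and 8.33 in the controls. The controls lay together, and 2 dexamethasone stallions lay below them and the third above. The group means were 8.09 ± 0.29 and 8.35 ± 0.02 (SD, n = 3 each), a difference of -0.26 ± 0.13 (SE, limma's adjusted p = 0.999). The difference was -0.11 without dexamethasone replicate 2 and -0.39 without dexamethasone replicate 3, and -0.40 and 0.04 within the first and second run of slides. The other PSMC1 probes were above background on 2 arrays each and were not tested. PSMC6 was at 10.83, 11.28 and 10.96 in the dexamethasone stallions, against 10.91, 11.17 and 10.95 in the controls, a difference of 0.01 ± 0.13 (SE). PSMC2 differed by 0.11 ± 0.10 and PSMC4 by -0.01 ± 0.08 (SE). PSMC4 had the narrowest spread of any proteasome probe, with a residual SD of 0.05.

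PSMD4, a ubiquitin receptor of the base, was at 6.81, 6.51 and 6.68 in the dexamethasone stallions, against 6.65, 6.67 and 6.72 in the controls. Dexamethasone replicates 1 and 2 were the highest and the lowest of the 6, and the difference was -0.01 ± 0.10 (SE). The lid holds PSMD14, the enzyme that cuts ubiquitin chains off the substrate, whose 2 tested probes pointed in opposite directions. Probe GE743596 was at 7.52, 7.45 and 7.42 in the dexamethasone stallions, against 7.34, 7.21 and 7.42 in the controls, a difference of 0.14 ± 0.09 (SE). Probe GE59512 was at 6.93, 6.88 and 7.10 in the dexamethasone stallions, against 7.01 and 7.12 in the 2 controls with a usable spot, a difference of -0.09 ± 0.11 (SE). Neither probe passed limma's test, with adjusted p = 0.999 for both, and the mean of the 2 was 0.02. PSMD11, a scaffold subunit of the lid, was at 11.04, 11.22 and 10.97 in the dexamethasone stallions, against 10.68, 11.11 and 11.13 in the controls. Control replicate 1 was lowest, as for PSMA1, and the difference of 0.11 ± 0.13 (SE) was -0.04 without that stallion. PSMD12 differed by 0.07 ± 0.09, PSMD8 by 0.03 ± 0.10 and PSMD3 by -0.04 ± 0.11 (SE).

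The chaperones that help the base to assemble are not part of the finished particle. PSMD10, also called gankyrin, was at 7.65, 8.23 and 8.35 in the dexamethasone stallions, against 8.06, 8.39 and 8.49 in the controls. Dexamethasone replicate 1 was lowest, and the difference of -0.24 ± 0.18 (SE, 95% interval from -0.64 to 0.16) was -0.02 without it. PSMD5 was at 6.50, 6.23 and 6.44 in the dexamethasone stallions, against 6.52, 6.40 and 6.64 in the controls. Its signal exceeded background in 1 dexamethasone stallion and in all 3 controls, so it met the filter through the group in which it was higher. Its direction is not read for that reason. The difference was -0.13 ± 0.10 (SE), and -0.34 ± 0.23 (SE) with the authors' scaled values, which carry no offset. PSME3, the activator of the nucleus, was at 6.57, 6.67 and 6.66 in the dexamethasone stallions, against 6.67, 6.66 and 6.58 in the controls, a difference of -0.00 ± 0.08 (SE). PSMF1, an inhibitor of the core, was at 8.67, 8.73 and 8.68 in the dexamethasone stallions, against 8.81, 8.71 and 8.63 in the controls, and differed by -0.02 ± 0.08 (SE). The intervals ran from -0.18 to 0.18 for PSME3 and from -0.21 to 0.17 for PSMF1. The interferon-responsive activators PSME1 and PSME2, also with 1 gene between them in the horse table, and PSME4, which is known for histone degradation in mouse spermatids, gave no signal above background.

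Spread between stallions of the same group was measured as limma's residual SD on the log2 scale. Its median was 0.11 over the 28 proteasome probes and 0.12 over all 24590 probes. For 3 of the 28 the SD lay above the 90th percentile of probes within 0.5 of the same mean level. These were PSMA8 (GE88463) with an SD of 0.84, PSMA1 with 0.33 and PSMD10 with 0.31. A count of 3 of 28 lies close to the share of all probes that a 90th percentile leaves above it. Nothing particular to the proteasome is read from it. The SD of PSMA8 probe GE88463 lay at the 99.9th percentile of the 3443 probes within 0.5 of its level. The second PSMA8 probe, GE88462, had an SD of 0.07 and lay at the 11.1th percentile at its level.

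**Figure D4:**
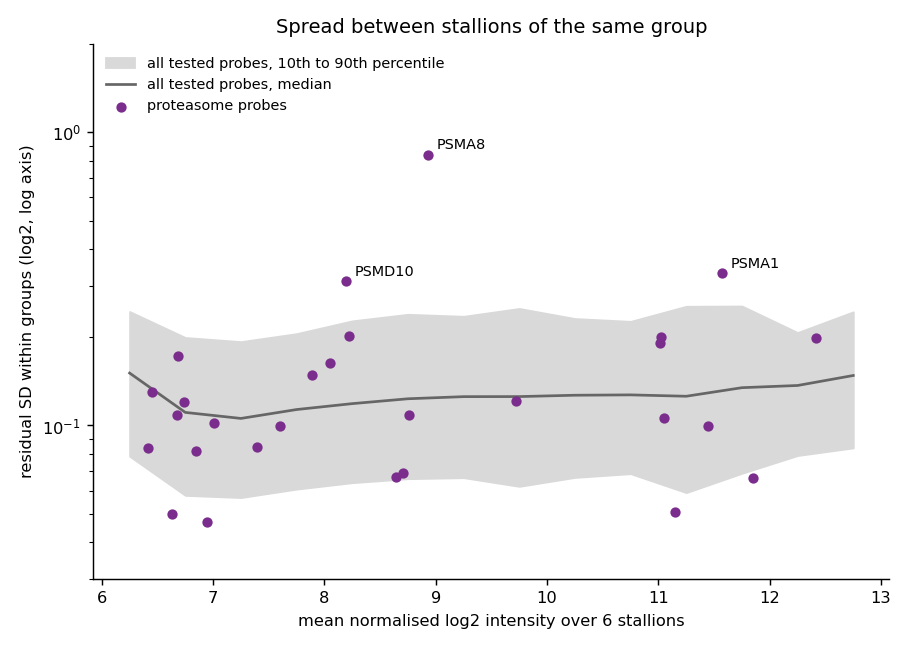
Residual SD within groups (y axis, log scale) against mean normalised log2 intensity (x axis) for the proteasome probes (points), with the median (line) and the 10th to 90th percentile (band) of all tested probes in steps of level. PSMA8 (GE88463), PSMA1 and PSMD10 lie above the band, and PSMC4, PSME3, PSMB2 and 1 probe of PSMA5 (GE59874) below it.

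Between the 6 stallions the medians over the proteasome genes differed little, and those over the members at high level differed more. For the 22 tested genes with 6 values, the median deviation from each gene's mean was -0.01, 0.04 and 0.01 in the dexamethasone stallions and -0.02, 0.02 and 0.00 in the controls. The same medians over 9657 genes ran from -0.01 to 0.01. For the 7 proteasome genes with a mean over 9 they were 0.00, 0.17 and -0.05 in the dexamethasone stallions and -0.11, 0.08 and 0.06 in the controls. Over the 2178 genes with a mean over 9 they ran from -0.02 to 0.01. The medians of the 7 rest on few genes, and their spread was not tested. Dexamethasone replicate 2 held the highest value for 8 of the 22 genes (36.4%, against 18.8% of all genes), among them PSMA2, PSMA3, PSMC6 and PSMD11. The lowest value lay in dexamethasone replicate 1 for 5 genes (22.7%, against 19.8% of all genes) and in control replicate 1 for 5 (22.7%, against 15.6%). Dexamethasone replicate 2 also had the lowest value for 4 genes (18.2%, against 21.4%), PSMC1 among them, so no stallion was high or low throughout. Control replicate 2 was lowest for 4 as well (18.2%, against 14.6%).

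**Figure D5:**
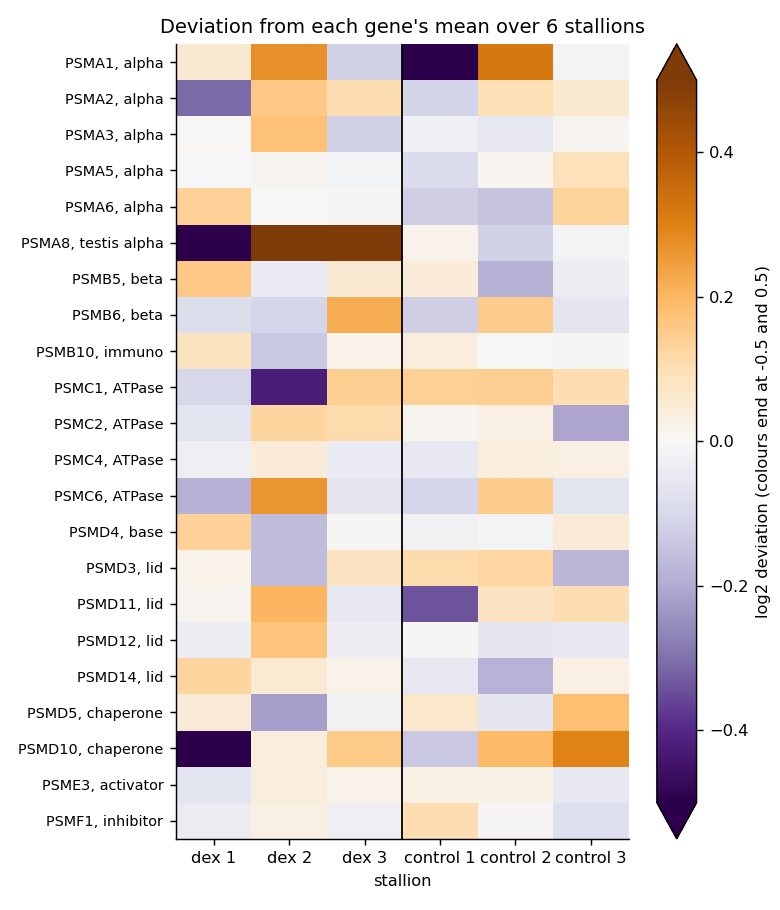
Log2 deviation of the 22 tested genes with 6 values (rows, by role) from each gene's mean over the 6 stallions (columns, dexamethasone left of control); orange is above and purple below the mean. No column is of 1 colour throughout, and the strongest colours are those of PSMA8, PSMA1, PSMC1 and PSMD10.

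Other genes of the pathway were taken from 6 lists of 75 genes, of which 34 were tested. None passed limma's adjusted p. At the unadjusted p of 0.05 limma passed 1 higher gene (against 1.47% of all probes) and 1 lower gene (against 1.81%). In all 20 were higher and 14 lower, and the median difference was 0.03. Among other assembly and associated proteins 6 of 9 were higher and 3 lower (median 0.03). PSMG4, a chaperone of core assembly, was at 8.98, 8.98 and 9.13 in the dexamethasone stallions, against 8.95, 8.69 and 8.85 in the controls. The groups lay apart by a narrow gap, with a difference of 0.20 ± 0.10 (SE), but of 0.06 under median scaling and of 0.26 without control replicate 1, the setting in which it passed limma's unadjusted p (0.0372), and its second probe differed by -0.01 ± 0.10 (SE). PSMG2, which pairs with PSMG1 in the same step, was at 10.03, 11.34 and 10.80 in the dexamethasone stallions, against 9.97, 10.77 and 10.92 in the controls, a difference of 0.17 ± 0.32 (SE). Its spread was wide in both groups, with a residual SD of 0.59, and the stallion lowest for PSMA1 was lowest here too.

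Of the shuttle factors and partners of VCP, the ATPase that extracts ubiquitylated proteins, 7 of 10 were higher and 3 lower (median 0.06). UFD1 was at 6.53, 6.60 and 6.75 in the dexamethasone stallions, against 6.49, 6.47 and 6.22 in the controls, and passed limma's unadjusted test (difference 0.23 ± 0.10, SE, adjusted p = 0.999). Its signal exceeded background in only 2 of the controls. The difference was 0.08 and 0.53 within the first and second run of slides and 0.58 with plain background subtraction. The pass was lost with the slide run as a block (limma's unadjusted p = 0.0606), under median scaling, with trend and robust eBayes, with array weights and with no filter, and without dexamethasone replicate 2 or 3 or control replicate 2 or 3 (differences 0.25, 0.17, 0.27 and 0.15). Its partner NPLOC4 was at 9.17, 9.19 and 9.25 in the dexamethasone stallions, against 9.10, 9.07 and 9.16 in the controls. These groups did not overlap either, at a difference of 0.09 ± 0.08 (SE). VCP itself differed by -0.15 ± 0.09 (SE).

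Of the ubiquitin genes and enzymes of the first steps 4 of 6 were higher and 2 lower (median 0.03), taking the brightest probe per gene. By that rule UBA6, which activates ubiquitin, had the smallest p of the list. It was at 6.56, 6.68 and 6.60 in the dexamethasone stallions, against 6.46, 6.50 and 6.67 in the controls, a difference of 0.07 ± 0.09 (SE). A dimmer probe of UBE2N, a conjugating enzyme, had a smaller p, with a difference of -0.13 ± 0.10 (SE). That probe was above background in only 1 dexamethasone stallion and 2 controls, the fewest arrays that testing allowed. The brightest UBE2N probe differed by -0.03 ± 0.09 (SE). Among 3 tested regulators of proteasome genes NFE2L1, the factor that raises their transcription when the proteasome is inhibited, was at 8.73, 8.83 and 8.79 in the dexamethasone stallions, against 9.03, 8.94 and 8.83 in the controls. The groups met at 8.83 and the difference was -0.15 ± 0.09 (SE). It was -0.28 under median scaling (limma's unadjusted p = 0.0271) and -0.25 with the authors' scaled values. The median of all tested genes moved lower as well in these settings, to -0.09 and -0.07. Under median scaling 7.31% of all probes passed limma's unadjusted p of 0.05. Of the ubiquitin ligases that glucocorticoids induce in muscle, FBXO32 differed by -0.04 ± 0.11 and TRIM63 by 0.04 ± 0.10 (SE). The 4 tested had a median of 0.00. FBXO21, with the smallest p of them, was at 6.58, 6.26 and 6.64 in the dexamethasone stallions, against 6.61, 6.60 and 6.59 in the controls, a difference of -0.11 ± 0.11 (SE). Dexamethasone replicate 2 was lowest, and the difference was 0.01 without it and -0.30 with background subtraction. Of the MHC class I presentation genes 2 of 13 were tested, and CALR, a chaperone of the endoplasmic reticulum, was at 10.83, 10.39 and 10.72 in the dexamethasone stallions, against 10.88, 10.96 and 10.91 in the controls. All 3 controls lay above the dexamethasone stallions, with a difference of -0.27 ± 0.11 (SE) that passed limma's unadjusted test (adjusted p = 0.999), and of -0.14 without dexamethasone replicate 2. The pass was lost with the slide run as a block (limma's unadjusted p = 0.0523) and with background subtraction (0.0848), and also without dexamethasone replicate 2 or any 1 of the controls. Non-overlapping groups were found for 4 of the 34 genes, 3 of them higher (against 4.20% of all probes) and 1 lower (against 5.07%).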

How the data were processed

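The deposited scanner files of 6 one-colour CodeLink arrays give the mean spot intensity, the median background near it, a quality flag and, per the file headers, a signal strength, a score that was not used here. The deposited scaled intensity equals background-subtracted intensity over an array constant, judged from the values, and the table of the whole series repeats it. Scanner software is not given in the sources used here. Spots flagged M had no value, those flagged C, I or P (letters the files do not explain) were treated as missing, and those flagged L were taken as not above background. Here limma 3.58.1 (R 4.3.3) was used for normexp correction (offset 50) and quantile normalisation, and log2 values were computed from the deposited intensities. Probe names printed more than once were left out. Plots used matplotlib 3.10.9 (Python 3.11.15).

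Dexamethasone was compared with control by lmFit and eBayes in limma, two-sided, with no covariates and Benjamini-Hochberg adjustment over the 24590 probes tested. This step was run on simulated data with added changes, the smallest of them 1.5-fold. Its power for changes of that size is not given here, and that for smaller ones was not tested. The lack of a call therefore does not by itself show that such changes are absent. Errors of differences are moderated standard errors. The brightest tested probe stood for a gene in medians. Values per stallion follow a rule: PSMA8, PSMB10, PSME3, PSMF1, the smallest p of each role and pathway list, pathway genes past an unadjusted p of 0.05, and genes whose probes disagree. PSMA1, PSMA2, PSMB6, PSMB2, PSMC6, PSMD11, PSMD5, PSMG2, NPLOC4 and SYCP1 were added after their values were seen. The probe shared by PSMD4 and PIPSL, with the smallest p of the tested shared probes, lay outside the rule as well. The members and lists were chosen with earlier results of these data known. Probes that the annotation ties to several genes were not members. Alternatives were other background corrections, normalisations, filters and eBayes settings, array weights, the slide run as a block and leaving out each array.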

Additional observations from a re-analysis of the deposited data

How the results depend on the processing

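The precision is limited by 3 stallions per group and, for probes near background, by the offset. Alternatives numbered 17 fitted settings besides the mean of a gene's probes and the values within each run of slides. Proteasome probes past limma's adjusted p numbered 0 in every one, with a smallest adjusted p of 0.311, that of PSMA8 without dexamethasone replicate 1. Past limma's unadjusted p of 0.05 there were 0 in the main setting and 1 of 28 under median scaling (PSMC1), against 7.31% of all probes. With no filter on background 1 of 51 passed (PSMC3), against 3.92% of all probes. That PSMC3 probe was above background on 0 arrays, at 6.21 in dexamethasone and 5.93 in control stallions. When single arrays were left out there were 0 to 1. These were PSMA8 without dexamethasone replicate 1 (1 of 27, against 3.89% of all probes) and PSMC1 without dexamethasone replicate 3 (1 of 28, against 4.57%). Nothing particular to the proteasome is read from these counts. The median difference of 0.02 was -0.0593 under median scaling and -0.0407 with the authors' scaled values, where the median of all genes moved as well, to -0.09 and -0.07, and ran from -0.00535 (without control replicate 1) to 0.0489 (without dexamethasone replicate 1) when each array was left out. It was 0.01 within both runs of slides. Over all probes 1 passed the adjusted p. This count was 0 with background subtraction, 0 with signal required on all 6 arrays and 0 with eBayes set to trend and robust. Leaving out single arrays gave 0 to 1, with 0 when control replicate 1 or control replicate 3 was absent. The cause was not tested. Of 522 single values of proteasome probes under the alternatives 74 changed sign and 31 moved by more than the residual SD, none of them to a call. The run of slides as a block changed no call of a proteasome probe, while UFD1 and CALR, the pathway genes past the unadjusted p, both lost it. Leaving out an array left no value where a group kept fewer than 2 usable spots. No paired analysis was possible because the labels give each stallion its own number and no pairing.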

Other observations

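Of the 8 probes that the annotation ties to a proteasome gene and to another gene together, 5 were tested. The probe shared by PSMD4 and PIPSL, a gene that in humans arose from a fusion of PIP5K1A and PSMD4 copies, was at 12.46, 12.15 and 11.93 in the dexamethasone stallions, against 11.71, 11.95 and 11.56 in the controls. It differed by 0.44 ± 0.15 (SE, limma's unadjusted p = 0.0127, adjusted p = 0.999), and the groups overlapped by a narrow margin. The probe of PSMD4 alone differed by -0.01 ± 0.10 (SE). That probe lay close to background, at 6.51 to 6.81 and above it on 5 arrays, where the offset compresses differences. The probe shared by PSMC2 and SMAD1 differed by -0.09 ± 0.11, that of PSMD6 and its antisense gene by -0.04 ± 0.08, that of PSMB1 and GSTP1 by -0.04 ± 0.09 and that of PSMB3 and HINT1 by -0.12 ± 0.10 (SE). Which of the genes a shared probe reads in the horse was not tested.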
